A study of Rattus norvegicus with 52 samples.

Results

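The genes described here are 10 genes of the contractile apparatus of myoepithelial cells, chosen by symbol from the 17356 genes counted in the series: Acta2, Actg2, Myh11, Mylk, Myl9, Tagln, Cnn1, Tpm1, Tpm2 and Oxtr. All 10 had a row in each of the 48 RNA-seq libraries, and all 10 passed the filter on low counts in every fit. Libraries were made from cells sorted from the rat mammary gland. Basal/myoepithelial cells were the Cd24+ cells with high Cd29, and luminal cells the Cd24+ cells with low Cd29. The genotype sets compared Cdkn1b+/+ with Cdkn1b-/- females of the ACI strain, in which Cdkn1b encodes the cell cycle inhibitor p27. The knockout rats carried deletion alleles made in Sprague-Dawley zygotes (em1 or em4) and crossed onto ACI, and females of both genotypes were chosen from crosses of heterozygotes. Sprague-Dawley sequence linked to Cdkn1b can therefore differ between the genotypes and cannot be told apart from the deletion. The paper sorted glands from an early and a late backcross generation, and the sample labels do not name the generation. Unlinked Sprague-Dawley sequence can therefore also differ between libraries, and between genotypes in groups this small. At 9 weeks of age 16 libraries came from basal cells, PNA+ luminal progenitors, Cd49b+ luminal progenitors and mature luminal cells, with 2 libraries for each population and genotype. PNA is peanut agglutinin, a lectin used in the sort. Both progenitor fractions formed 1 group in the tests, luminal progenitors (LP), of 4 libraries per genotype. At 4 weeks 11 libraries came from basal cells (3 Cdkn1b+/+, 2 Cdkn1b-/-) and luminal cells (3 and 3), and at 6 weeks 9 libraries came from basal cells (3 and 2) and luminal cells (2 and 2). The paper describes each of these 2 sets as a range of ages that ends at the age named here. Age can therefore vary within a set, also between genotypes. A further 12 libraries came from basal and luminal cells of wild-type ACI and BN rats that had received a 17β-estradiol (E2) implant or a control, the 2 strains being susceptible (ACI) and resistant (BN) to mammary cancer induced by E2. In each of these cell types there were 2 libraries for each ACI treatment and 1 for each BN treatment, and the BN titles each name a pair of animals. The paper describes implants placed at 9 weeks of age that released hormone over 3 weeks, and the labels of this experiment give no age. The luminal titles of this experiment also name Cd49b and PNA, unlike the luminal titles of 4 and 6 weeks. They do not say how these markers entered the sort, so the luminal gate may differ between the sets.

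Myoepithelial cells are epithelial cells of the basal layer of ducts and alveoli that contract in response to oxytocin and so eject milk. They use the smooth muscle machinery. Oxytocin binds its receptor Oxtr, a rise in calcium activates the kinase Mylk, and Mylk phosphorylates the regulatory light chain Myl9 of the smooth muscle myosin whose heavy chain is Myh11. Acta2 and Actg2 are the smooth muscle actins along which this myosin pulls, Tpm1 and Tpm2 are tropomyosins that lie along the actin filament, and Cnn1 and Tagln are calponin family proteins that bind it. Vascular smooth muscle cells and pericytes use most of the same genes, so these transcripts alone do not separate a myoepithelial cell from a cell of the vessel wall. In sorted bulk samples, fewer cells of a type and less RNA per cell cannot be told apart.

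Levels are given in CPM, the counts of a gene scaled to the total of all gene counts in that library. Total gene counts ranged from 21545344 to 33859550 at 9 weeks, from 14674040 to 23045345 at 4 weeks, from 7985619 to 16390460 at 6 weeks and from 13659389 to 25280421 in the E2 experiment, so that 3 counts, the floor used here for detection, are 0.0886 to 0.376 CPM. Cdkn1b was below every Cdkn1b+/+ library in all 8 Cdkn1b-/- libraries of 9 weeks (at most 4.24 against at least 6 CPM) and in all 5 of 4 weeks (at most 15.2 against at least 15.6 CPM). At 6 weeks the genotypes overlapped: the third library labelled Cdkn1b+/+ basal held 3.13 CPM, less than both basal libraries labelled Cdkn1b-/- (11.1 and 13.1 CPM), and the second library labelled Cdkn1b-/- luminal held 30.2 CPM against 31.4 and 46.3 CPM in the luminal libraries labelled Cdkn1b+/+. A small deletion in a gene need not lower its transcript. The check does not settle the 6 weeks labels. Every direction between genotypes at 6 weeks rests on them, as do the comparisons of Cdkn1b+/+ basal cells between 6 weeks and the other ages. Some libraries stand apart and are named again beside the results they touch. The E2 experiment holds 3 libraries labelled basal with high pericyte markers. At 9 weeks the second Cdkn1b-/- Cd49b+ library is high in all 10 genes, at 6 weeks the basal libraries labelled Cdkn1b+/+ are low in most of them, and the second library labelled Cdkn1b-/- luminal of 6 weeks is high in adipocyte and fibroblast markers.

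At 9 weeks the 10 genes together took 1.99% to 3.26% of all gene counts in basal libraries, 0.0457% to 0.453% in LP libraries and 0.0518% to 0.0583% in mature luminal libraries. All 10 genes were higher in basal than in mature luminal cells by the quasi-likelihood test of edgeR (Benjamini-Hochberg adjusted p under 0.05), which called 20.4% of the 12809 genes tested as higher. For all 10 the 4 basal and 4 mature luminal libraries did not overlap, which held, in the same direction, for 19.6% of all genes. The log2 fold changes ran from 3.65 for Tpm1 to 6.83 for Cnn1 with a median of 6.23, while the median over all genes tested was -0.04. The basal keratin and adhesion markers (Krt5, Krt14, Tp63 and 5 others) summed to at least 16909 CPM in the basal libraries of 9 weeks and at most 986 CPM in the mature luminal libraries. Markers of other contractile cells moved in the same direction, with 6 of 8 pericyte and vascular smooth muscle markers called as higher in basal cells (median 1.78, sums of 118 to 450.4 against 80.5 to 208 CPM) and 3 of 5 skeletal muscle markers (median 2.14, sums of 36.1 to 277 against 4.13 to 7.03 CPM). Of the fibroblast markers 2 of 5 tested and of the Schwann cell markers 2 of 4 were called as higher, and no endothelial marker was. Their part in the result was not tested.

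For the actins, Acta2 held 969 and 725 CPM in the Cdkn1b+/+ basal libraries and 1109.6 and 1145 CPM in the Cdkn1b-/- basal libraries. It held 14.9 and 9.16 CPM in Cdkn1b+/+ mature luminal cells and 10.3 and 9.37 CPM in Cdkn1b-/- mature luminal cells. The 4 basal libraries were thus all far above the 4 mature luminal libraries, at 987 ± 191 against 10.9 ± 2.69 CPM (SD, n = 4 each), a log2 difference of 6.35 (SE 0.87, edgeR adjusted p = 9.05e-05). Actg2 was likewise apart, at 1937 ± 488 CPM in basal and 16.2 ± 1.46 CPM in mature luminal cells (log2 6.74, SE 0.93). Actin genes are near identical in coding sequence, and reads that align to several places were left out of the counts, so the level of each actin is uncertain.

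Among the motor genes, Myh11 held 1524 and 2598 CPM in Cdkn1b+/+ basal libraries and 1783 and 1899 CPM in Cdkn1b-/- basal libraries, against 15.7 to 25.7 CPM in the 4 mature luminal libraries (log2 6.38, SE 0.91, edgeR adjusted p = 0.000127). The light chain Myl9 held 2377 to 4175 CPM in basal and 41.8 to 51.7 CPM in mature luminal libraries (log2 5.98, SE 0.78). The kinase Mylk was counted at 217, 207, 285 and 329 CPM in the basal libraries and at 3.9 to 5.57 CPM in the mature luminal libraries (log2 5.54, SE 0.60). Myosin, its light chain and the kinase that phosphorylates it were thus all concentrated in the same fraction. Among the filament binding proteins, Cnn1 showed the widest gap of the 10, with 2497 to 3747 CPM against 22.4 to 30.5 CPM (log2 6.83, SE 0.97). Tagln, its relative, held 3346 to 7237 CPM against 62.7 to 78.6 CPM (log2 6.12, SE 0.77).

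The 2 tropomyosins were not alike. Tpm2 held 2943 to 6732 CPM in basal libraries and 43.1 to 56.3 CPM in mature luminal libraries (log2 6.34, SE 0.82). Tpm1 held 4147, 3977, 3452 and 4629.7 CPM in the basal libraries but also 294, 247, 335 and 301 CPM in the mature luminal libraries. Its log2 difference of 3.65 (SE 0.31, edgeR adjusted p = 3.57e-06) was the smallest of the 10 and had the smallest standard error. Tpm1 also encodes non-muscle isoforms by alternative splicing and promoter use, and the counts are per gene. For Oxtr, the receptor, the basal libraries held 91.2, 257, 51.5 and 131 CPM and the mature luminal libraries 3.76, 6.04, 1.53 and 1.48 CPM (log2 5.39, SE 0.94, edgeR adjusted p = 0.000545). Oxtr had the widest relative spread among the basal libraries, yet its lowest basal value remained above its highest mature luminal value.

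LP cells lay between. All 10 genes were lower in LP than in basal cells, by 3.12 (Tpm1) to 5.51 (Cnn1) on the log2 scale, a direction called for 27% of all genes tested, and for all 10 the groups did not overlap (15.1% of all genes). Against mature luminal cells only Myh11 passed the test (11.7% of all genes were called as higher in LP), with 21.1, 129 and 822 CPM as its lowest, median and highest LP level. It averaged 225 ± 256 CPM in LP (SD, n = 8) against 21.5 ± 4.46 CPM (n = 4) in groups that overlapped, a log2 difference of 3.12 (SE 0.74, edgeR adjusted p = 0.0103). The 8 LP libraries are PNA+ and Cd49b+ sorts with the same numbers, and the labels do not say whether these share animals. The other 9 genes had positive estimates of 0.52 to 1.64 and adjusted p of 0.061 to 0.287. With library totals in place of TMM scaling, 67.5% instead of 50.1% of the genes called in LP against mature luminal cells were higher in LP, and Myh11 was still the 1 member called. Without the second Cdkn1b-/- Cd49b+ library Myh11 (log2 2.28, edgeR adjusted p = 0.00422) and Myl9 (0.90, adjusted p = 0.0403) were called. Without the first Cdkn1b-/- PNA+ library 4 were called, and without the second Cdkn1b-/- mature luminal library none was. Vessel markers were higher in LP too, with 6 of 8 pericyte and vascular smooth muscle markers (median 1.78, sums of 115 to 608 against 80.5 to 208 CPM) and 5 of 6 endothelial markers (median 2.47, sums of 80.1 to 694 against 60.4 to 74.5 CPM) called, and their part in the Myh11 difference was not tested.

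The 2 progenitor fractions were not alike. In Cdkn1b+/+ rats Myh11 held 231 and 291 CPM in the Cd49b+ libraries and 101 and 155 CPM in the PNA+ libraries, and Cnn1 held 95.6 and 116 CPM against 22.6 and 27.4 CPM. Both Cd49b+ libraries exceeded both PNA+ libraries for 9 of the 10 genes (11.7% of all genes), Oxtr being the exception (5.97 and 16.2 against 2.51 and 6.51 CPM). In Cdkn1b-/- rats the same held for 8 of 10 (22% of all genes), the exceptions being Myh11 and Myl9, but 1 library set the size of the gap: the second Cd49b+ library held 4532 CPM of the 10 genes together and the first 802 CPM, against 457 and 736 CPM in the PNA+ libraries. That library was also the highest LP library in basal keratin and adhesion markers and in endothelial markers (2504 and 694 CPM, with the lowest LP libraries at 519 and 80.1 CPM). The difference between the progenitor fractions was not tested.

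At 4 weeks all 10 genes were higher in basal than in luminal cells (20.3% of the 12082 genes tested were called as higher), and no basal library overlapped a luminal one for any of the 10 (14.3% of all genes). Acta2 held 729, 894 and 1769 CPM in Cdkn1b+/+ basal libraries and 721 and 1376 CPM in Cdkn1b-/- basal libraries, and its luminal libraries ranged from 0.985 to 3.79 CPM. Its log2 difference of 8.83 (SE 0.37, edgeR adjusted p = 1.39e-08) was the largest at this age. Of the 10 genes, 8 differed by 7.29 to 8.83 on the log2 scale, with a median over the 10 of 8.17. The exceptions were Oxtr (4.66, SE 0.47), for which the 5 basal libraries held 21.1 to 185 CPM and the 6 luminal libraries 1.66 to 7.83 CPM, and Tpm1 (3.31, SE 0.29), which held 569.9 to 1192 CPM in the luminal libraries. Skeletal muscle markers, a list that includes the skeletal actin Acta1, also summed higher in the basal than in the luminal libraries of 4 weeks, at 261 to 392 against 6.93 to 14.9 CPM. So did fibroblast markers (1199.9 to 7912 against 36.8 to 427 CPM, 5 of 5 tested called as higher) and Schwann cell markers (532 to 1697 against 144 to 289 CPM, 3 of 4). Of 7 pericyte and vascular smooth muscle markers tested, 5 were called as higher and 1 as lower (median 3.02), with sums that overlapped (28.4 to 67.2 against 12 to 116 CPM). The part of these markers in the result was not tested.

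At 6 weeks all 10 were again higher in basal cells, in a set where 3.49% of the 11921 genes tested were called as higher, and again none of the 10 overlapped between basal and luminal libraries (6.27% of all genes). The log2 differences ranged from 2.16 (SE 0.33) for Tpm1 to 7.27 (SE 0.94) for Acta2 with a median of 5.42, and whether they differ from those of 4 weeks was not tested. The 5 basal libraries held 44.9 to 716 CPM of Acta2 and the 4 luminal libraries 0.303 to 4.5 CPM. Oxtr had no count in the first luminal library labelled Cdkn1b+/+ and 0.456 CPM in the second, and 5.46 to 197 CPM in the basal libraries (log2 5.04, SE 0.93, edgeR adjusted p = 0.0136). The order of basal above luminal thus held for each of the 10 genes at each of the 3 ages, while the luminal floor itself differed between sets, with Tagln at 11.5 to 15.6 CPM in luminal cells of 4 weeks and 62.7 to 78.6 CPM in mature luminal cells of 9 weeks. Age, the luminal gate and the set of libraries cannot be told apart in that last difference.

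**Figure D1:**
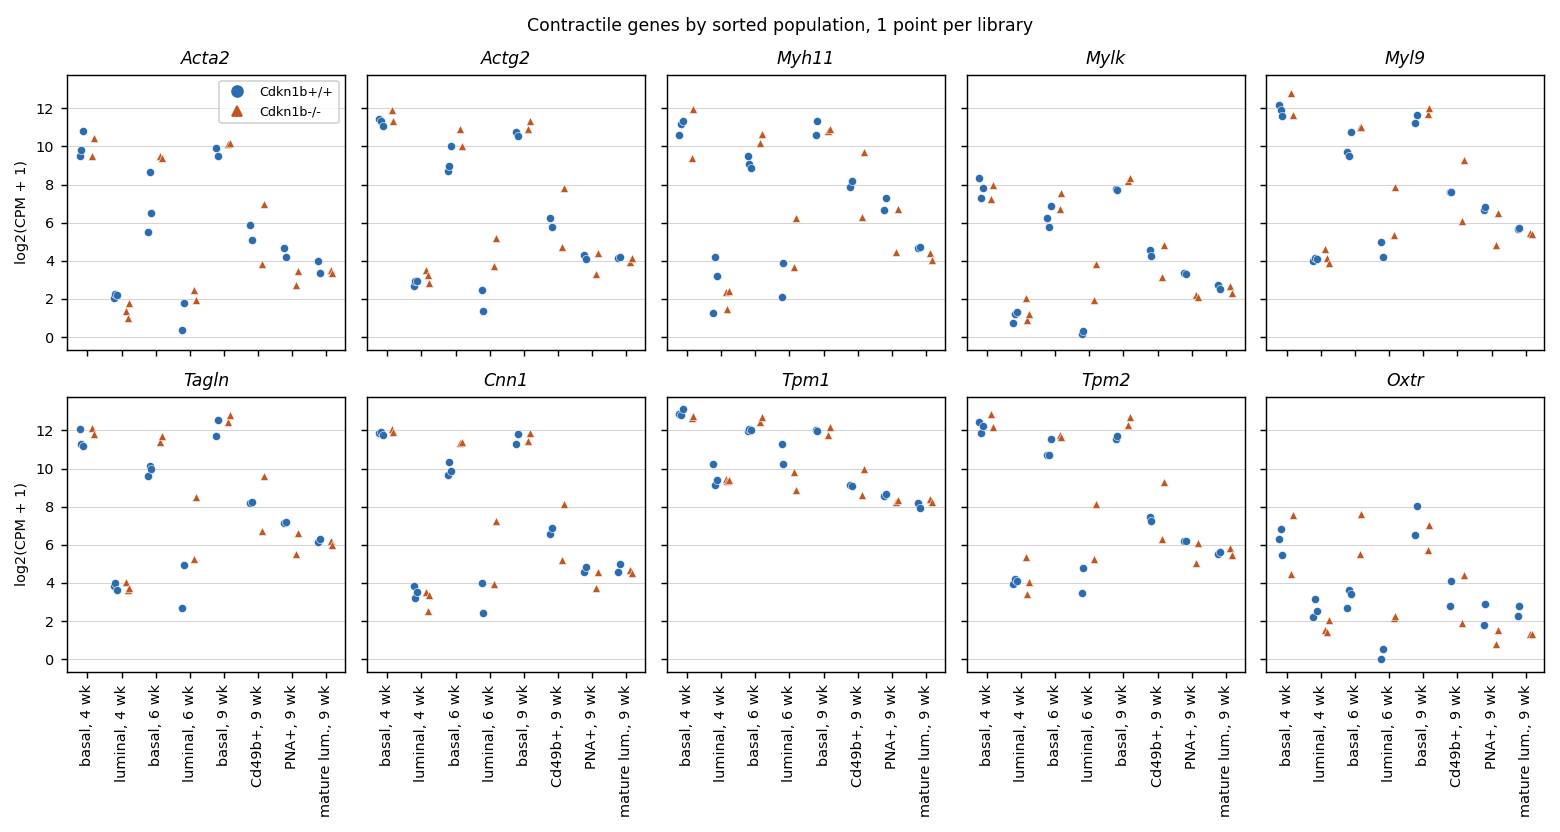
Level of each of the 10 genes as log2(CPM + 1) in the sorted populations of 4, 6 and 9 weeks, 1 point per library, with circles for Cdkn1b+/+ and triangles for Cdkn1b-/-. Basal libraries lie above luminal libraries of the same age in every panel, the gap is smallest for Tpm1, and the second Cdkn1b-/- Cd49b+ library (Myh11 at 822 CPM) is above the other LP libraries.

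The transcription factor Srf binds CArG boxes, short runs of A and T between paired C and G, and many smooth muscle genes are known to be its targets. RefSeq windows of the GRCr8 assembly, from 250 bases before to 50 after the start of the gene, were at hand for 7 of the 10 genes, namely Acta2, Actg2, Mylk, Cnn1, Tpm1, Tpm2 and Oxtr. None of the 7 windows held an exact CArG box on either strand, and 1.64% of all 33469 windows did. A search that allowed 1 letter off, chosen after the exact search had given none, found boxes in Acta2 and Tpm1 and in 21.3% of all windows. The 4 matches shown are all that this search found in the 7 windows. Each is written in the direction of transcription with the box in capitals and 10 bases on either side, from chr1:241172618-241172647 and chr1:241172568-241172597 for Acta2 and chr8:76543591-76543620 and chr8:76543451-76543480 for Tpm1, all on the minus strand. The boxes begin 134 and 84 bases before the start of Acta2 and 195 and 55 bases before the start of Tpm1.
Acta2, first: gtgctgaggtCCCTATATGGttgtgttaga
Acta2, second: tgtctttgctCCTTGTTTGGgaagcgagtg
Tpm1, first: gctcgggtccCCATATATAGtcatatccac
Tpm1, second: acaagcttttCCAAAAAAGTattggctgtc
A match of letters is a description of these windows and not a measured binding site.

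Other genes of contraction followed the basal fraction to different degrees. Of 19 genes that accompany the smooth muscle apparatus, 18 were called as higher in basal than in mature luminal cells at 9 weeks and none as lower, with a median log2 difference of 3.50 (all genes -0.04). The largest were Pdlim3 (5.09), Smtn (4.63) and Lmod1 (4.57), which encode a sarcomeric and stress fibre linker, smoothelin and a leiomodin that nucleates actin. At 4 weeks 16 of the 19 were higher and at 6 weeks 7, and the channel subunits Kcnma1 (8.27) and Kcnmb1 (7.94) led at 4 weeks. Of all genes tested, 20.4% were called as higher at 9 weeks, 20.3% at 4 weeks and 3.49% at 6 weeks, and 14.8% as lower at 4 weeks. Non-muscle actins, myosins, tropomyosins and calponin family genes were much less divided. Of 10 such genes tested, 6 were higher in basal cells at 9 weeks (median 0.72), led by Myh10 (2.08) and Cnn3 (2.03), 2 were higher and 1 (Actg1, -0.78) lower at 4 weeks (median -0.21), and 1, Cnn3 (1.68), was higher at 6 weeks.

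Genes of calcium signalling were mixed. Of 14 genes between the oxytocin receptor and calcium, 5 were higher and 4 lower in basal than in mature luminal cells at 9 weeks (median 0.31), where 20.4% of all genes were called as higher and 18.4% as lower. At 4 weeks 3 were higher and 4 lower, with 20.3% and 14.8% of all genes. The calcium channel gene Cacna1c (3.61 at 9 weeks, 4.74 at 4 weeks) and the inositol trisphosphate receptor gene Itpr1 (1.47 and 1.39) were higher in basal cells, whereas the sister receptors Itpr2 (-1.79 and -1.08) and Itpr3 (-1.13 and -1.53) were lower. Of the 4 genes of the Srf list that were counted, Tgfb1i1, a coactivator of Srf, was higher in basal cells at 9 weeks (5.45, SE 0.68), 4 weeks (5.5, SE 0.24) and 6 weeks (4.25, SE 0.47). Srf itself was higher in basal cells at 9 weeks (0.94, SE 0.15) and lower at 4 weeks (-1.44, SE 0.285, edgeR adjusted p = 0.00148).

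In basal libraries labelled Cdkn1b+/+ the contractile genes were lower at 6 weeks than at 4 weeks. The third of the 6 weeks libraries held 3.13 CPM of Cdkn1b, and the check of labels did not settle its genotype. It also had the fewest gene counts of the series (7985619) and the largest share of reads not assigned to a gene (77%). The comparison of 9 with 6 weeks uses it too. Of the 10, 9 passed the test (11% of the 12500 genes tested in the 14 basal libraries were called as lower), and the groups of 3 libraries did not overlap for any of the 10 (24.8% of all genes). Acta2 held 729, 894 and 1769 CPM at 4 weeks and 44.9, 407 and 89.3 CPM at 6 weeks, so every 6 weeks library was below every 4 weeks library (log2 -2.52, SE 0.66, edgeR adjusted p = 0.0214). Oxtr showed the largest difference, with 78.9, 111 and 43.6 CPM against 5.46, 11.4 and 9.89 CPM (log2 -3.04, SE 0.76, edgeR adjusted p = 0.0176). Cnn1 had the smallest adjusted p, with 3700.3, 3797 and 3418 CPM against 815, 1297 and 935 CPM (log2 -1.76, SE 0.33, edgeR adjusted p = 0.00433). Tpm1 was at the threshold (log2 -0.84, SE 0.28, adjusted p = 0.0498), and Tpm2, at 4686 ± 932 against 2107 ± 723 CPM (SD, n = 3 each), missed it (log2 -1.09, SE 0.36, adjusted p = 0.0516). Without the first or without the second 4 weeks library 5 of the 10 passed.

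From 6 to 9 weeks the direction turned. Of the 10, 8 were higher at 9 weeks (12% of all genes were called as higher) and 9 did not overlap (29.4% of all genes). Oxtr held 91.2 and 257 CPM at 9 weeks (log2 4.34, SE 0.84, edgeR adjusted p = 0.00413), Tagln 3346 and 6007 CPM against 775, 1128 and 1024 CPM at 6 weeks (log2 2.32, SE 0.41, adjusted p = 0.00284) and Myh11 1524 and 2598 CPM against 715, 532 and 474 CPM (log2 1.93, SE 0.49, adjusted p = 0.0154). Tpm1 did not take part, at 4147 and 3977 CPM against 4003, 4373 and 4211 CPM (log2 0.00, SE 0.31), and Tpm2 did not pass (log2 0.64, adjusted p = 0.268). The count depends on the 2 libraries of 9 weeks, since 1 gene was called without the second of them and 4 without the first. Similarly, 4 were called without the first and 5 without the second library of 6 weeks, and 2 when only the 5 libraries compared were fitted. The median over all genes was 0.18 in this comparison, so the log2 changes are to be read against that shift. Between 9 and 4 weeks none of the 10 was called (1.5% of all genes were, and 2033 genes and 1 of the 10 had an unadjusted p under 0.05), and DESeq2 called 1, Tpm1. The edgeR estimates gave log2 differences of -0.83 (Tpm1) to 1.30 (Oxtr). These 3 comparisons share libraries and are not independent. The basal libraries labelled Cdkn1b-/- also had their lowest sums of the 10 genes at 6 weeks, 2.02% and 2.15% of all gene counts. Their sums were 3.07% and 3.54% at 4 weeks and 2.52% and 3.26% at 9 weeks. Ages were not compared by a test within Cdkn1b-/-.

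The 6 weeks libraries differed in more than age. They are a set of their own and the shallowest of the series, and the 3 basal libraries labelled Cdkn1b+/+ also held less basal keratin and adhesion signal (4658 to 7656 CPM) than the basal libraries of 4 weeks (8564 to 10703 CPM) or 9 weeks (16909 to 25178 CPM). Krt5 was at 318 to 368 CPM in them, and luminal markers summed to 2926 to 4144 CPM, against 2301 to 3448 CPM in basal cells at 4 weeks and 4096 to 6107 CPM at 9 weeks. Krt5, Krt14 and Tp63 were lower in these 3 libraries than in every Cdkn1b+/+ basal library of 4 weeks. The other basal markers, Krt17, Cdh3, Itga6, Itgb4 and Col17a1, overlapped with those libraries. Krt17 held 2544, 3315 and 1932 CPM at 6 weeks and 2281, 2918 and 1995 CPM at 4 weeks. Fibroblast markers summed to 67.1 to 567 CPM in these 3 libraries, 1199.9 to 7912 CPM in the basal libraries of 4 weeks and 588 to 2969 CPM in those of 9 weeks. Pericyte and vascular smooth muscle markers were low in basal cells at 6 weeks (5.38 to 64.9 CPM) and 4 weeks (28.4 to 67.2 CPM) and higher at 9 weeks (118 to 450.4 CPM). From 4 to 6 weeks in Cdkn1b+/+ cells, 3 of 5 skeletal muscle markers (median -3.42, sums of 261 to 392 and 11.3 to 40.1 CPM), 3 of 4 Schwann cell markers (median -2.75) and 4 of 5 fibroblast markers (median -3.62) were called as lower (11% of all genes), beside the median of -1.77 of the 10 genes. From 6 to 9 weeks, 5 of 6 endothelial markers (median 5.67, sums of 2.63 to 5.14 and of 59.8 and 110.3 CPM) and 4 of 8 pericyte and vascular smooth muscle markers (median 2.80) were called as higher (12% of all genes). The part of these markers in the age differences was not tested, and age and library set cannot be told apart.

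**Figure D2:**
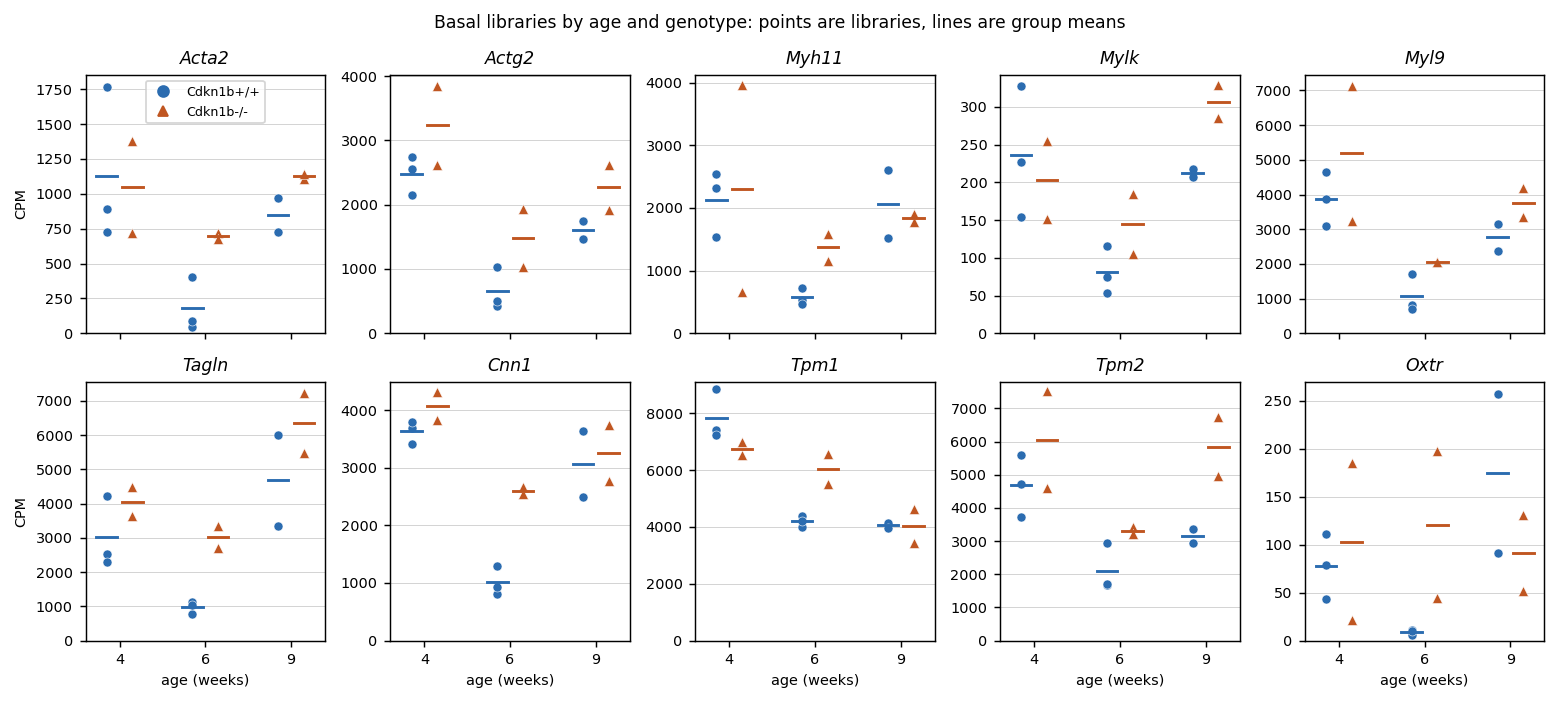
Level in CPM of each of the 10 genes in basal libraries of 4, 6 and 9 weeks, with circles for Cdkn1b+/+ libraries, triangles for Cdkn1b-/- libraries and horizontal lines for group means. The 3 libraries labelled Cdkn1b+/+ of 6 weeks are the lowest basal libraries of their genotype for Acta2, Actg2, Myh11, Mylk, Myl9, Tagln, Cnn1, Tpm2 and Oxtr. For Tpm2 the margin is narrow, with at most 2942 CPM at 6 weeks and at least 2943 CPM at 9 weeks.

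The comparison of genotypes asked whether loss of p27 changed the contractile genes. In basal cells none of the 10 was called at any age. At 4 weeks edgeR called 0 of the 12082 genes tested (310 had an unadjusted p under 0.05, none of them among the 10), a background of 0%. The log2 differences ran from -0.08 (Mylk) to 0.70 (Myl9), and the 95% interval for Acta2, with means of 1048 and 1130.4 CPM, was -0.89 to 0.89. DESeq2 also called none of the 10 at this age. At 9 weeks, where 0.0546% of all genes were called and 1164 genes but none of the 10 had an unadjusted p under 0.05, 9 of the 10 estimates were positive, from 0.07 (Myh11) to 1.13 (Tpm2), and Oxtr was at -0.72. Without TMM scaling, which moved the median of all genes from 0.00 to -0.25, Myh11 (-0.16) and Tpm1 (-0.01) were negative too, as in the CPM means (1841 against 2061 and 4041 against 4062 CPM). The libraries did not overlap for 5 genes, Acta2, Actg2, Mylk, Myl9 and Tpm2, all higher in Cdkn1b-/- (11.1% of all genes with 2 libraries against 2). Tpm2 was the largest, at 4964 and 6732 CPM in Cdkn1b-/- and 2943 and 3357 CPM in Cdkn1b+/+ (log2 1.13, 95% interval -0.87 to 3.14, edgeR adjusted p = 0.771). Pericyte and vascular smooth muscle markers were also higher in the Cdkn1b-/- basal libraries of 9 weeks (415 and 450.4 CPM) than in the Cdkn1b+/+ libraries (118 and 236 CPM). So were basal keratin and adhesion (22758 and 25178 against 16909 and 19489.7 CPM), leukocyte (229 and 272 against 98.2 and 166 CPM) and adipocyte markers (303 and 397 against 142 and 182 CPM). Skeletal muscle (221 and 277 against 36.1 and 219.6 CPM) and Schwann cell markers (316 and 361 against 192 and 309 CPM) were too. Fibroblast, endothelial and luminal sums overlapped. The part of these markers in the estimates was not tested. Intervals this wide do not show that the genotypes are alike.

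At 6 weeks, among the basal libraries labelled by genotype, all 10 estimates were positive, from 0.40 (Tpm1) to 3.61 (Oxtr) with a median of 1.10 (all genes 0.08), and for 8 of the 10 the 2 libraries labelled Cdkn1b-/- lay above the 3 labelled Cdkn1b+/+. That held for 29.4% of all genes, and no gene was called in this fit (0%, with 1072 genes and 1 of the 10 at an unadjusted p under 0.05). Oxtr held 44.5 and 197 CPM in the libraries labelled Cdkn1b-/- and 5.46, 11.4 and 9.89 CPM in those labelled Cdkn1b+/+ (log2 3.61, SE 1.03, edgeR adjusted p = 0.385). It was called in a joint fit of 4 and 6 weeks (log2 3.47, edgeR adjusted p = 0.0347) and by DESeq2 (log2 3.59, adjusted p = 0.00728). Acta2 held 716 and 676 CPM against 44.9, 407 and 89.3 CPM (log2 1.78, 95% interval -0.26 to 3.81). Basal keratin and adhesion markers (9499 and 12213 against 4658 to 7656 CPM), fibroblast markers (3288 and 2331 against 67.1 to 567 CPM) Schwann cell markers (2289 and 1420.2 against 187 to 396 CPM), pericyte and vascular smooth muscle markers (62.8 and 64.9 against 5.38 to 40.4 CPM), skeletal muscle markers (83.6 and 89.1 against 11.3 to 40.1 CPM) and endothelial markers (30.8 and 12.1 against 2.63 to 5.14 CPM) all summed higher in the libraries labelled Cdkn1b-/-, and their part in the difference was not tested.

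The genotype effect in basal cells was compared between ages directly. No member was called for 9 minus 6 weeks (0.0720% of all genes) or 6 minus 4 weeks (0.0880% of all genes), with 1 of the 10 (Oxtr) at an unadjusted p under 0.05 in each. Oxtr had the largest estimates, -4.38 (SE 1.2, edgeR adjusted p = 0.19) and 3.21 (SE 1.14, adjusted p = 0.296), and was called for 9 minus 6 weeks with no filter on low counts (adjusted p = 0.0357) and by DESeq2 (adjusted p = 0.018). Without the second library labelled Cdkn1b+/+ basal of 6 weeks, Acta2 was called for 6 minus 4 weeks (3.26, edgeR adjusted p = 0.0304).

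In luminal cells none of the 10 was called by genotype either, with backgrounds of 3.4% of all genes in LP cells and 0.133% in mature luminal cells at 9 weeks and 0% at both younger ages. At 9 weeks 2346 genes in LP and 916 in mature luminal cells had an unadjusted p under 0.05, none of them among the 10, and DESeq2 called none of the 10. In LP cells 8 of the 10 estimates were positive, from -0.32 (Mylk) to 0.91 (Tpm2). Acta2 held 57.4, 33.2, 24.4 and 17.4 CPM in the Cdkn1b+/+ LP libraries and 13.5, 124, 5.56 and 9.86 CPM in the Cdkn1b-/- libraries, so that 3 of the 4 knockout libraries were below all wild-type libraries and 1 above them. Without that library, the second Cd49b+, all 10 estimates were negative, from -0.09 (Tpm1) to -1.74 (Oxtr), and Acta2 was called (log2 -1.38, edgeR adjusted p = 0.035). In mature luminal cells the estimates lay from -1.55 (Oxtr, at 1.53 and 1.48 against 3.76 and 6.04 CPM) to 0.42 (Tpm1). At 4 weeks, where 435 genes and 1 of the 10 (Acta2, log2 -0.96) had an unadjusted p under 0.05, they ran from -1.19 to 0.81.

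At 6 weeks 9 of the 10 estimates were positive in the luminal libraries labelled Cdkn1b-/-, with a median of 3.32, and Tpm1 was negative (-1.39, with 896 and 474 CPM against 2531 and 1187 CPM). The groups of 2 did not overlap for 7 genes in the higher direction and for Tpm1 in the lower (23.3% and 24.9% of all genes). Mylk held 2.81 and 13.1 CPM in the libraries labelled Cdkn1b-/- and 0.101 and 0.228 CPM in those labelled Cdkn1b+/+. The latter were 1 and 3 counts, at or under the floor, so no fold is given. Tagln held 36.9 and 368 CPM against 5.36 and 29.6 CPM (log2 3.81, SE 1.16, edgeR adjusted p = 0.184). The edgeR fit called none of the 10 although 9 had an unadjusted p under 0.05, while 7 were called in a joint fit with 4 weeks, 9 by DESeq2 and 7 without the first library labelled Cdkn1b-/-. Without the second library labelled Cdkn1b-/- none was called, and the estimate for Tagln fell to 0.86. That library held 7006 CPM of adipocyte markers (117 CPM in the first, 5.97 and 4.34 CPM in those labelled Cdkn1b+/+), 3076 CPM of fibroblast markers (117, 16.6 and 33.5 CPM), 283 CPM of pericyte and vascular smooth muscle markers (109, 29.6 and 15 CPM) and 569.7 CPM of basal keratin and adhesion markers (414, 824 and 539.7 CPM). Endothelial markers (147 and 464 against 0.303 and 8.9 CPM) and leukocyte markers (352 and 829 against 19.6 and 101 CPM) summed higher in both libraries labelled Cdkn1b-/-. Schwann cell markers did too (191 and 289 against 65 and 65.5 CPM), while luminal and skeletal muscle sums overlapped. The part of these cells in the difference was not tested.

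**Figure D3:**
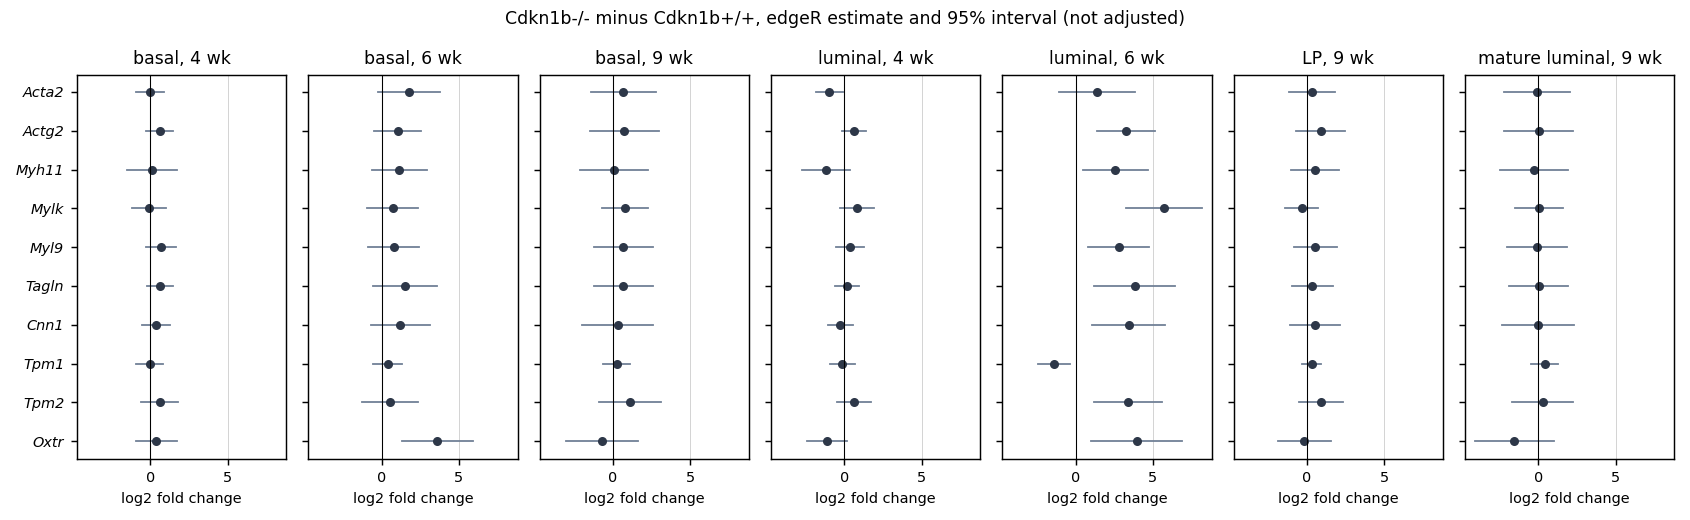
Difference between genotypes in each of the 10 genes as log2 fold change, Cdkn1b-/- minus Cdkn1b+/+, with the edgeR estimate as a point and its unadjusted 95% interval as a bar, in 7 comparisons. Most intervals include 0, and those that do not, chiefly in luminal cells of 6 weeks, belong to genes whose adjusted p missed the threshold.

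The E2 experiment asked whether hormone treatment and strain changed the basal program, and its basal labels need care. The second ACI control, the first ACI E2 and the BN control library, 3 libraries labelled basal, held 4279 to 5026 CPM of pericyte and vascular smooth muscle markers and 812 to 2563 CPM of basal keratin and adhesion markers. The other 3 held 153 to 1936 and 10035 to 12684 CPM. Krt14 was at 729, 56.3 and 303 CPM in the first 3 and at 2611, 4701 and 3057 CPM in the others, and Tp63, which defines basal cells, had no count in the first ACI E2 library. All 8 pericyte markers had counts in 5 of the 6 basal libraries, these 3 included, and 5 of 8 had counts in the BN E2 library. In the latter, Rgs5 (0.0489 CPM) and Notch3 (0.0978 CPM) were under its floor of 0.147 CPM. The contractile genes did not all move together with these markers. Myh11 held 4028, 1511 and 3087 CPM in the 3 libraries and 3655, 4395 and 3012 CPM in the others, and Mylk 209, 145 and 197 against 184, 203 and 166 CPM, so both ranges overlapped. Cnn1 held 389, 87.4 and 619 CPM in the 3 libraries and 948, 1617 and 1459 CPM in the others, and Oxtr 20.5, 0 and 8.71 CPM against 107, 83.6 and 94.9 CPM, so both ranges were apart. These 3 libraries were picked by their markers and not by a label, so no test was made between them and the rest.

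Levels differed from those of 9 weeks also in the 3 basal libraries with high keratin. Acta2 held 99.6, 177 and 277 CPM in them, below the 725 to 1145 CPM of the basal libraries of 9 weeks, and Myh11 3012 to 4395 CPM, above the 1524 to 2598 CPM of those libraries. These 3 were not free of other markers, since the ACI libraries held 1096 and 1936 CPM of pericyte and vascular smooth muscle markers (118 to 450.4 CPM in basal cells at 9 weeks) and the BN E2 library 16612 CPM of fibroblast markers (at most 2969 CPM at 9 weeks). The part of these markers in the levels was not tested. The 2 experiments are separate sets, and set, age and implant cannot be told apart. In luminal cells of the E2 experiment the summed level of the 10 genes ranged from 205 to 6704 CPM. The highest was the BN control library, with Actg2 at 479 CPM, Myl9 at 1415 CPM and Tpm2 at 1376 CPM.

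All 10 genes had positive basal minus luminal estimates in the E2 experiment, from 1.79 (Tpm1) to 5.01 (Oxtr) with a median of 3.64, and for 5 genes (Myh11, Mylk, Myl9, Tagln and Tpm1) the 6 basal and 6 luminal libraries did not overlap (1.95% of all genes). None of the 10 passed the edgeR test (0.525% of the 13335 genes tested did), although all 10 had an unadjusted p under 0.05, with adjusted p of 0.107 to 0.336. DESeq2 called 9 of the 10. Without the 3 libraries of high pericyte markers edgeR again called none, with estimates from 1.54 (Tpm1) to 6.02 (Oxtr).

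No member responded to E2 or differed by strain past the test, in fits that called no gene at all (0% of 13335 in each of the 5 comparisons). In basal cells 241 genes and none of the 10 had an unadjusted p under 0.05 for E2, and the other 4 comparisons had 153 to 451 such genes and again none of the 10. The basal E2 estimates ran from -0.42 (Myh11) to 0.64 (Actg2), and the 95% interval of Acta2 was -2.41 to 2.45. Without the 3 libraries of high pericyte markers the basal E2 estimates were -0.40 (Oxtr) to 1.91 (Actg2). The basal strain estimates, -1.63 (Acta2) to 0.22 (Oxtr) with all libraries, were then -0.72 to 0.76. The luminal E2 estimates spread more widely, from -2.51 to 2.72 with a median of -1.09, and 2 of the 10 were positive. In luminal cells the estimates for ACI minus BN were all negative, from -3.16 to -0.29 with a median of -2.03, with the BN control library at the top for 8 of the 10 genes. The direction depended on single libraries. The BN E2 library summed to 562 CPM, less than 3 of the 4 ACI luminal libraries, with the lowest Myh11 (0.791 CPM) and Actg2 (2.89 CPM) of the 6, and without the BN control library 9 of the 10 estimates were positive, up to 7.03 (Myh11). Without the first ACI control library 5 were positive, up to 2.75 (Myh11), and without the second only Myh11 was (0.70). Without TMM scaling, which moved the median of all genes from 0.09 to 0.56, Mylk (0.16) was positive. The difference of the E2 effect between basal and luminal cells gave no call, with estimates of -2.29 to 2.21, and DESeq2 called none of the 10 in any of these 5 comparisons. With 2 BN libraries in each cell type the data do not show that strains or treatments are alike.

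**Figure D4:**
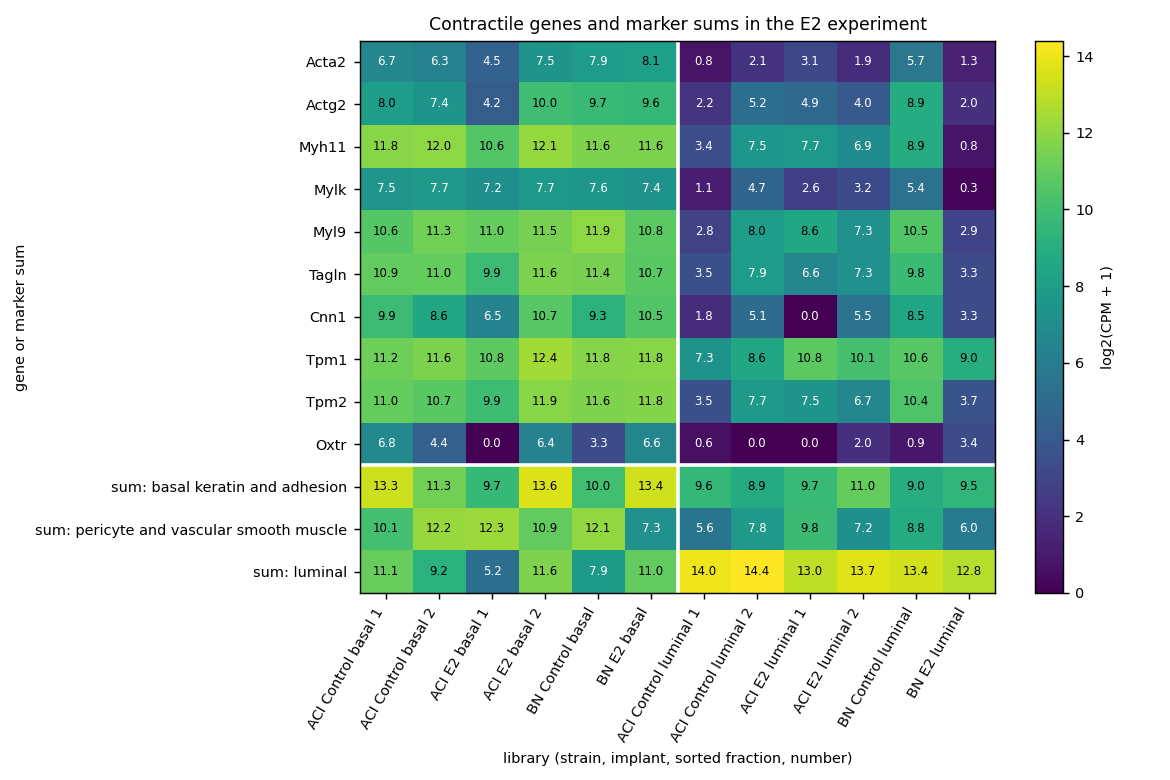
Levels as log2(CPM + 1) of the 10 genes, and of the summed basal, pericyte and luminal markers, in the 12 libraries of the E2 experiment, with basal libraries left and luminal libraries right of the white line. The second ACI control, first ACI E2 and BN control basal libraries are high in pericyte and low in basal markers, and have the 3 lowest basal levels of Cnn1 and Oxtr.

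The 10 genes varied together across all 48 libraries. Each gene's log2 CPM had a Pearson correlation with the mean of the other 9 of 0.72 (Oxtr) to 0.98 (Tpm2), a description over libraries that share populations and sets. The genes outside the list most like their mean were Krt5 (0.95), Igfbp2 (0.95), Phlda3 (0.95), Ckb (0.95), Cxcl14 (0.94), Pcp4 (0.93), Krt14 (0.93), Rbpms (0.93), Lmod1 (0.92) and Lhfp (0.92), of 8483 genes. Krt5 and Krt14 are the keratin pair of basal epithelium, Rbpms is an RNA-binding protein of muscle splicing and Lmod1 a smooth muscle leiomodin. Among the 20 basal libraries centred on their groups, the correlation with the other 9 fell to 0.21 for Myl9, 0.35 for Mylk, 0.37 for Myh11 and 0.53 for Acta2, and was 0.82 to 0.89 for Actg2, Tagln, Cnn1, Tpm1, Tpm2 and Oxtr. The centred values of the 2 BN basal groups, of 1 library each, are 0 by construction, and the ACI groups of the E2 experiment, each with 1 library of high pericyte markers, have wide deviations. The 10 genes most like the mean in this second view, with correlations of 0.97 to 0.98, were Ccndbp1, Mplkip, Eno3, Mtif3, Fam3a, Ift81, Zbtb8a, Acta1, RGD1307621 and Cecr5, none of which is in the first list.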

How the data were processed

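RNA-seq libraries were prepared by the authors with a low-input SMARTer kit and sequenced as single-end reads. The authors aligned reads with STAR 2.5.1b to rn6 and counted them per gene with HTSeq (the strand setting is not given in the sources used here), and the deposited values are raw counts per gene. Lines that name no gene were left out of totals; 47.1% to 77% of reads per library were not assigned to a gene, and 34.8% to 57% aligned to more than 1 place, so actin and tropomyosin levels are uncertain where paralogs share reads. CPM, TMM scaling, the edgeR 4.0.16 quasi-likelihood test with limma 3.58.1 in R 4.3.3 and Benjamini-Hochberg adjustment over all genes tested (filterByExpr, threshold 0.05) were computed here. Each age and the E2 experiment had its own fit, and basal libraries of 3 ages shared 1 fit. DESeq2 1.42.0, other filters and scalings, and leaving out each library were alternatives. Code was tested on simulated counts. Intervals and the floor of 3 counts cover counting or model error only. CArG boxes were searched in Python 3.11.15.

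The 10 genes and the other lists were chosen with earlier results of these data known. Other list genes were named by a rule: up to 3 per list and direction with the largest change among those called, with mean log2 CPM above 2. Genes of like pattern were the 10 with the highest correlation. Of 28 pairs of replicate libraries none was identical (chi-square per degree of freedom 45.2 to 811). The labels do not say for every pair that libraries came from separate animals, so p-values measure the spread between these libraries. At 9 weeks libraries of 1 genotype with the same number deviated together from their group means (correlation 0.14 to 0.64 over 20 pairs), and animal codes in the titles pair basal with luminal libraries in the other sets. Pairs of a PNA+ with a Cd49b+ library were not among those 20. Chromatin data of the study were not analysed here. A further gene list is not reported here.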

Additional observations from a re-analysis of the deposited data

Results flagged for a closer look

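In the Cdkn1b-/- LP libraries of 9 weeks, the second Cd49b+ library lay farther from the other 3 than Dixon's 95% limit for 4 samples for 9 of the 10 genes. Its levels were 124 CPM for Acta2, 222 CPM for Actg2, 822 CPM for Myh11, 627 CPM for Myl9, 783 CPM for Tagln, 282 CPM for Cnn1, 988 CPM for Tpm1, 636 CPM for Tpm2 and 20.6 CPM for Oxtr. The 10 genes summed to 4532 CPM in it and to 802 CPM in the next library. Of 22 groups examined 10 passed the limit, all through this 1 library, and chance passes about 1 in 20 groups of like samples. These 4 libraries mix 2 Cd49b+ and 2 PNA+ sorts, so neither the limit nor that rate strictly holds for them. The 10 sums and genes share the library and are not independent.

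Between Cdkn1b-/- and Cdkn1b+/+ at 9 weeks Myl9 was higher in both knockout basal libraries (log2 0.68) and lower in both knockout mature luminal libraries (log2 -0.10). At 6 weeks Tpm1 was higher in both basal libraries labelled Cdkn1b-/- (log2 0.40) and lower in both luminal ones (log2 -1.39). Neither difference between cell types was tested.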

How the results depend on the processing

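The 58 values of single genes called in edgeR had 991 alternatives, of which 938 kept direction and call, 53 missed the threshold and none reversed. Of 2627 alternatives for values not called, 187 had the opposite sign. Acta2 in LP cells turned from a positive genotype estimate to a called -1.38 without the second Cdkn1b-/- Cd49b+ library, and ranged from there to 0.71 as each library was left out. By count of the 10 genes called, DESeq2 gave 2 for basal against mature luminal and 2 against LP at 9 weeks (8 adjusted p were left undefined by its outlier filter, and 10 were called in each without it), 0 for LP against mature luminal (5 without that filter), 9 for genotype in luminal and 1 in basal cells at 6 weeks, 1 for 9 against 4 weeks, 1 for the genotype effect at 9 minus 6 weeks and 9 for basal against luminal in the E2 experiment, the latter 5 counts being equal without the filter. No filter on low counts gave 2 for LP against mature luminal, 1 for genotype in luminal cells at 6 weeks and 1 for 9 minus 6 weeks. At least 10 counts in every library gave 1 in the E2 experiment. A joint fit of 4 and 6 weeks gave 1 in basal and 7 in luminal cells of 6 weeks, and fitting only the groups compared gave 2 for 9 against 6 weeks. Leaving out each library gave 0 to 4 for LP against mature luminal, 0 to 1 for genotype in LP, 0 to 7 for genotype in luminal cells at 6 weeks, 5 to 9 for 6 against 4 weeks, 1 to 7 for 9 against 6 weeks and 0 to 1 for 6 minus 4 weeks. The causes were not tested. The scaling without factors, the DESeq2 fit without its filter, the E2 fits without 3 libraries and the crossed pairing were chosen after seeing the data.

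With the replicate number or animal code as a block, the counts of the 10 genes were 10, 10 and 1 for the populations of 9 weeks, 10 at 4 weeks, 10 at 6 weeks, 0 in the E2 experiment and 0 for each genotype comparison of 9 weeks, so the block changed no count. Across genotypes the numbers of 9 weeks did not pair libraries (correlation -0.36 to 0.15 over 12 pairs), and the crossed pairing also called 0 of the 10.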
